A study of Mus musculus with 6 samples.

Results

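The Popeye domain genes Bves, Popdc2 and Popdc3 were described in newborn mouse heart with and without Rbpms. They are 3 of the 14004 genes with deposited expression values, taken by gene name, together with the 15 splicing events listed under these names among 39201 events in the authors' splicing tables. The tissue was heart ventricle of C57BL6 mice on postnatal day 1. Of the 6 libraries, 3 came from Rbpms knockout (KO) mice and 3 from wild-type (WT) mice, all made from polyadenylated RNA with a stranded protocol. The labels call the libraries of a genotype biological replicates, without the number of animals in each and without the allele or the cells in which Rbpms was deleted, so p-values measure the spread between libraries. The family was chosen by the deposited inclusion levels at the alternative 5′ splice site of Popdc2, with other results of these data in view, so the values at that site are given without a test and the others support nothing about the choice.

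Popeye domain proteins are membrane proteins of striated muscle that bind cyclic AMP (cAMP), the second messenger of beta-adrenergic signalling, through the cytoplasmic domain that gives the family its name. In mouse heart, loss of Bves (also called Popdc1) or of Popdc2 is known to slow the sinus node under stress, and both proteins bind the potassium channel TREK-1, made from Kcnk2. In human families, variants of POPDC3 cause a limb-girdle muscular dystrophy. RBPMS is an RNA-binding protein that controls splicing in muscle and binds paired CAC triplets in RNA.

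Popdc2 (ENSMUSG00000022803, chr16:38362209-38378216 on the plus strand of GRCm38) carries the event with the widest gap in inclusion level among those of the family. Exon 3 ends at either of 2 donor sites, and the stretch between them, chr16:38374237-38374377, is 141 bases long. When that stretch is kept, the reading frame ends inside it after 95 further coding bases, and the GENCODE M21 transcript Popdc2-201 codes for 371 residues. When the inner site is used, the frame runs on into exon 4 and Popdc2-202 codes for 367 residues. The forms therefore differ in their last residues, as the coding ends of the transcripts show. Both start with the last 20 bases before the inner site, capitals in the long form mark the 6 bases that follow that site and would begin the intron of the short form, and the closing capitals in each mark the stop codon. The long form covers chr16:38374217-38374334, and the short form joins chr16:38374217-38374236 to chr16:38377655-38377740.
Popdc2 long form: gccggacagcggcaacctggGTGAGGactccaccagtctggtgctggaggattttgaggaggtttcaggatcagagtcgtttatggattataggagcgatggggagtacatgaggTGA
Popdc2 short form: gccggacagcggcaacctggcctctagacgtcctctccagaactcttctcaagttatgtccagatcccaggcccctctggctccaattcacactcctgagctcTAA

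The kept stretch also holds 4 CAC triplets on the RNA strand, overlaps counted, among them a pair with 1 to 12 bases between. A piece of 30 bases near its end, chr16:38374344-38374373, beyond the stop codon, shows 3 of them in capitals.
Popdc2 long form end: taaCACgggCACagtCACcggctcaggatc
Such a pair was found in 28.6% of 97540 windows of 141 bases at the ends of annotated coding-gene exons, and 22.2% of these windows held as many CAC triplets. The 141 bases before the inner site held 2 CAC triplets and no such pair. These are letter matches in one strand, with no measurement of binding.

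Rbpms itself had 0.594, 0.276 and 0.240 RPKM in KO replicates 1 to 3, against 33.1, 35.7 and 38.1 RPKM in WT replicates 1 to 3 (reads per kilobase of gene length, scaled to the reads of each library), a log2 change of -5.40 with an adjusted p of 5.31e-06 in limma. The number of reads per library is unknown. Of 12911 genes tested, 822 were called at an adjusted p below 0.05, that is 6.37%, with 307 higher (2.38%) and 515 lower (3.99%) in KO hearts. With libraries rescaled by their median ratio the split became 428 higher and 417 lower. WT replicates 1 and 2 stood close together, with a standard deviation of 0.132 for their log2 ratios over 3677 genes, against 0.244 to 0.496 for the other pairs of libraries. All 10 ventricular muscle markers were detected, and they summed to 12100 to 15800 RPKM in KO libraries and 16300 to 17400 RPKM in WT libraries. Within them, Myh7, the fetal myosin heavy chain, averaged 836 ± 83.8 RPKM in KO and 518 ± 65.5 RPKM in WT hearts, and Myh6, the adult form, averaged 1290 ± 251 RPKM in KO and 2020 ± 103 RPKM in WT hearts, both called. The 6 airway markers tested of 7 all fell, led by the secretoglobins Scgb3a2, Scgb3a1 and Scgb1a1, and summed to 0.493 to 19.3 RPKM in KO and 646 to 901 RPKM in WT libraries, with none at 0. Of 6 smooth muscle markers, 4 fell, led by Myh11, Cnn1 and Acta2, and the list summed to 347 to 453 RPKM in KO and 1030 to 1200 RPKM in WT libraries. The endothelial list had 2 called rises of 6, Emcn and Pecam1, and summed to 221 to 243 RPKM in KO and 170 to 197 RPKM in WT libraries. The fibroblast list had 2 of 6, Postn and Tcf21, with 598 to 759 RPKM in KO and 526 to 720 RPKM in WT libraries. Without WT replicate 1, and again without WT replicate 2, calls were lost for Myh6, Myh7, Pecam1, Postn, Tcf21, Smtn (smooth muscle) and Cyp2f2 (airway). Most of these were also lost without 1 or more KO libraries, and that of Myh6 also with median-ratio scaling (adjusted p 0.0545 in limma). The atrial list, led by Myl7 and Myl4, and the skeletal muscle list, led by Mylpf and Tnnt3, had no called gene of 5 and of 6 tested, and their sums overlapped between genotypes. The part of these other tissues in the results below was not tested, and in bulk RNA fewer cells of a type and less RNA per cell cannot be told apart.

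Of the 3 members, 1 was called, higher in KO, against 2.38% of all genes tested. Popdc3 rose in KO hearts, while Popdc2, the most abundant member, stayed within the spread of its libraries and Bves had lower values that missed the threshold. Popdc3 (ENSMUSG00000019848, chr10:45178098-45318452, plus strand) had 31.7, 36.3 and 40.8 RPKM in KO replicates 1 to 3, against 21.4, 20.9 and 28.9 RPKM in WT replicates 1 to 3. Every KO library lay above every WT library, with KO replicate 1 only just above WT replicate 3. Groups did not overlap, in either direction, for 29.8% of all genes tested. The means were 36.3 ± 4.56 RPKM in KO and 23.7 ± 4.45 RPKM in WT hearts (SD, n = 3 each). On the log2(RPKM + 0.5) scale the change was 0.61 with a standard error of 0.14 and a 95% interval of 0.28 to 0.93, or 1.53-fold, and limma's adjusted p was 0.0445. In the authors' deposited table of edgeR results, the log2 change of Popdc3 was 0.66 at a false discovery rate (FDR) of 0.00132, and that table called 11.1% of 14004 genes at 0.05. The call was lost when single libraries were left out. Limma's adjusted p was 0.12 without KO replicate 2, 0.11 without KO replicate 3, 0.161 without WT replicate 1 and 0.186 without WT replicate 2. It was 0.173 with WT replicates 1 and 2 averaged, while it was 0.0359 without KO replicate 1 and 0.0147 without WT replicate 3.

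Bves (ENSMUSG00000071317, chr10:45335772-45372479, plus strand) is the neighbour of Popdc3, with 17319 bases between the genes. It had 38.6, 48.8 and 48.1 RPKM in KO replicates 1 to 3, against 63.2, 63.8 and 55.0 RPKM in WT replicates 1 to 3. The groups did not overlap, as for 29.8% of all genes tested. The means were 45.2 ± 5.73 RPKM in KO and 60.7 ± 4.93 RPKM in WT hearts (SD, n = 3 each). The log2 difference was -0.43 with a standard error of 0.11 and a 95% interval of -0.68 to -0.18, and limma's adjusted p of 0.0600 missed the threshold of 0.05. The authors' deposited table also placed Bves above that threshold, with a log2 change of -0.383 and an FDR of 0.0701. With each library left out in turn, limma's adjusted p for Bves ran between 0.0512 and 0.231 and the log2 difference between -0.50 and -0.32.

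Popdc2 had 164, 204 and 202 RPKM in KO replicates 1 to 3, against 187, 196 and 198 RPKM in WT replicates 1 to 3. The groups overlapped, and KO replicate 1 held the lowest value of all. The means were 190 ± 22.3 RPKM in KO and 194 ± 6.20 RPKM in WT hearts (SD, n = 3 each). The log2 difference was -0.03 with a standard error of 0.10 and a 95% interval of -0.26 to 0.19, and limma's adjusted p was 0.879. Its sign was not stable, being 0.07 without KO replicate 1 and 0.01 after median-ratio scaling. The authors' deposited table gave Popdc2 a log2 change of 0.0195 and an FDR of 0.96.

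**Figure D1:**
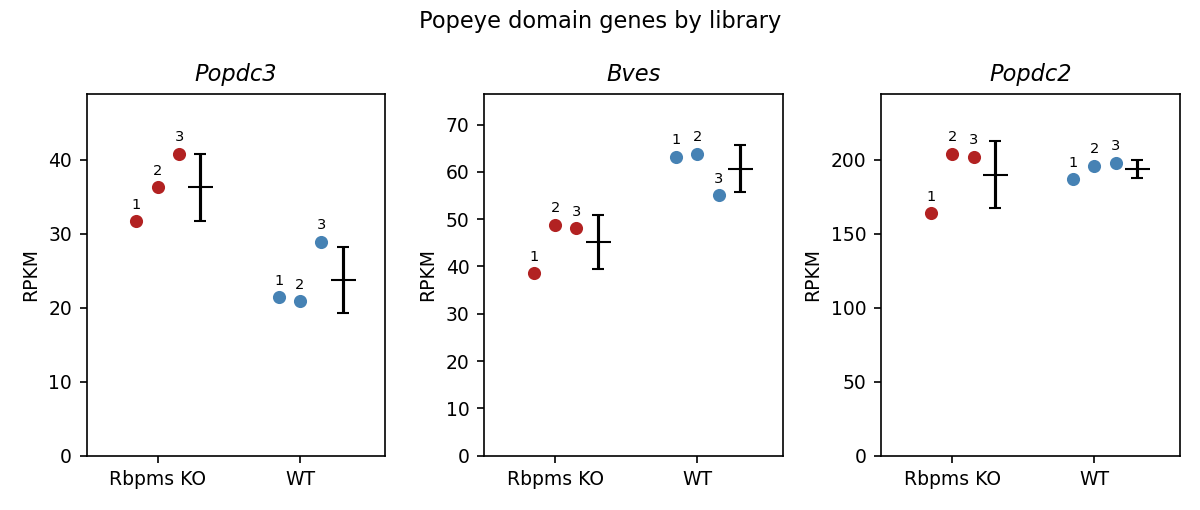
RPKM of the Popeye domain genes in each library (numbered points are replicates, KO left and WT right, bars are mean ± SD, n = 3, each y axis from 0). For Popdc3 the KO libraries lie above the WT libraries, for Bves below them, and for Popdc2 the genotypes overlap.

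The family's summed level overlapped between genotypes, and the shares of Popdc3 and Bves in it did not. The 3 genes summed to 235, 289 and 291 RPKM in KO replicates 1 to 3, against 271, 280 and 282 RPKM in WT replicates 1 to 3. Popdc2 supplied 70.0 ± 0.588% of the sum in KO and 69.6 ± 0.763% in WT hearts. Popdc3 supplied 13.5, 12.6 and 14% in KO, against 7.89, 7.47 and 10.2% in WT libraries. Bves supplied 16.4, 16.9 and 16.6% in KO, against 23.3, 22.8 and 19.5% in WT libraries. The ratio of Popdc3 to Bves was 0.821, 0.744 and 0.847 in KO libraries, against 0.338, 0.328 and 0.525 in WT libraries. These shares restate the levels above and were not tested on their own.

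Per length, the order of levels was Popdc2, then Bves, then Popdc3 in each of the 6 libraries. By mean over all libraries Popdc2 was 131st of 14004 genes at 192 RPKM, Bves 639th at 52.9 RPKM and Popdc3 1178th at 30.0 RPKM. Popdc2 stood apart from both others in either genotype. Bves and Popdc3 did not overlap in WT hearts, whereas across KO hearts the lowest Bves value, 38.6 RPKM, lay under the highest Popdc3 value, 40.8 RPKM. The deposited gene lengths equal the union of annotated exons, 2360 bases for Popdc2, 4610 for Bves and 2083 for Popdc3. In the annotation Popdc3 overlaps the same-strand gene Gm27723 and the antisense genes Gm26016, Gm15934 and Gm47433, and Popdc2 overlaps the same-strand gene Gm21987, and how the authors counted overlapping genes is not stated, so reads shared with those genes would be uncertain.

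Among 6245 genes of at least 5 RPKM on average, the profiles closest to each member over the 6 libraries were sought by the root mean square difference of centred log2 values. Nearest to Popdc3 were Cyth3 at 0.0606, Bmp6 at 0.0721 and Gga2 at 0.0939. Cyth3 averaged 19.6 RPKM in KO and 13.3 RPKM in WT hearts, and Bmp6, a ligand of the bone morphogenetic protein family, 6.31 RPKM in KO and 4.07 RPKM in WT hearts. Nearest to Bves were Mrpl18 at 0.0294, Trp53inp2 at 0.0446 and Glrx at 0.0504. Mrpl18, a protein of the mitochondrial ribosome, averaged 39.4 RPKM in KO and 53.2 RPKM in WT hearts. Nearest to Popdc2 were Selenoh at 0.0116, Kif1c at 0.0255 and Ankrd28 at 0.0299. The members were farther from each other, with 0.564 between Bves and Popdc3, 0.350 between Popdc2 and Popdc3 and 0.216 between Bves and Popdc2. With 6 libraries and so many genes, close profiles are a description only.

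The deposited splicing tables, named after rMATS, give inclusion levels and junction reads for 2 sets of 3 libraries without naming a genotype. At the 15 events of Rbpms, the libraries of one set held 40, 22 and 14 reads in all, against 3420, 3838 and 3985 reads in the other. They are called the Rbpms-low and the Rbpms-high set, and libraries within a set cannot be matched to replicates. An inclusion level is the share of the longer form or of the exon kept, after correction for length. Of the members' 15 events, 9 lie in Popdc2, 3 in Bves and 3 in Popdc3, none is a retained intron, and each had at least 20 junction reads in every library. The authors' deposited tables called 5 of the 15 at an FDR below 0.05, all in Popdc2, where 1.35% of all events were called. The 5 include the event that named the gene. The Popdc2 events share reads with it and with each other, so this count is no measure of enrichment.

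At the alternative 5′ splice site, whose sequences stand above, the inclusion level of the long form of Popdc2 was 0.746, 0.720 and 0.730 in the Rbpms-low set, against 0.474, 0.495 and 0.422 in the Rbpms-high set. The means were 0.732 ± 0.0131 in the Rbpms-low set and 0.464 ± 0.0376 in the Rbpms-high set (SD, n = 3 each), a difference of 0.268, and the sets lay far apart. This is a difference in the form of the transcript, and the level over all exons, given above, is a separate measure.

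Junction reads were separated by solving the overlapping events of Popdc2 for each junction, and 36 of 36 library checks over 6 identities came out equal. Reads joining the long exon 3 to exon 4 numbered 414, 477 and 554 in the Rbpms-low libraries, against 392, 408 and 375 in the Rbpms-high libraries. Reads joining the short exon 3 to exon 4 numbered 113, 143 and 147 in the Rbpms-low libraries, against 333, 328 and 399 in the Rbpms-high libraries. In these raw reads, from libraries of unknown depth, the short junction was lower and the long junction higher in every Rbpms-low library than in any Rbpms-high library. Of the reads leaving exon 3 for exon 4, 78.6, 76.9 and 79.0% came from the long form in the Rbpms-low set, against 54.1, 55.4 and 48.4% in the Rbpms-high set. Means were 78.2 ± 1.10% in the Rbpms-low and 52.7 ± 3.70% in the Rbpms-high set.

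**Figure D2:**
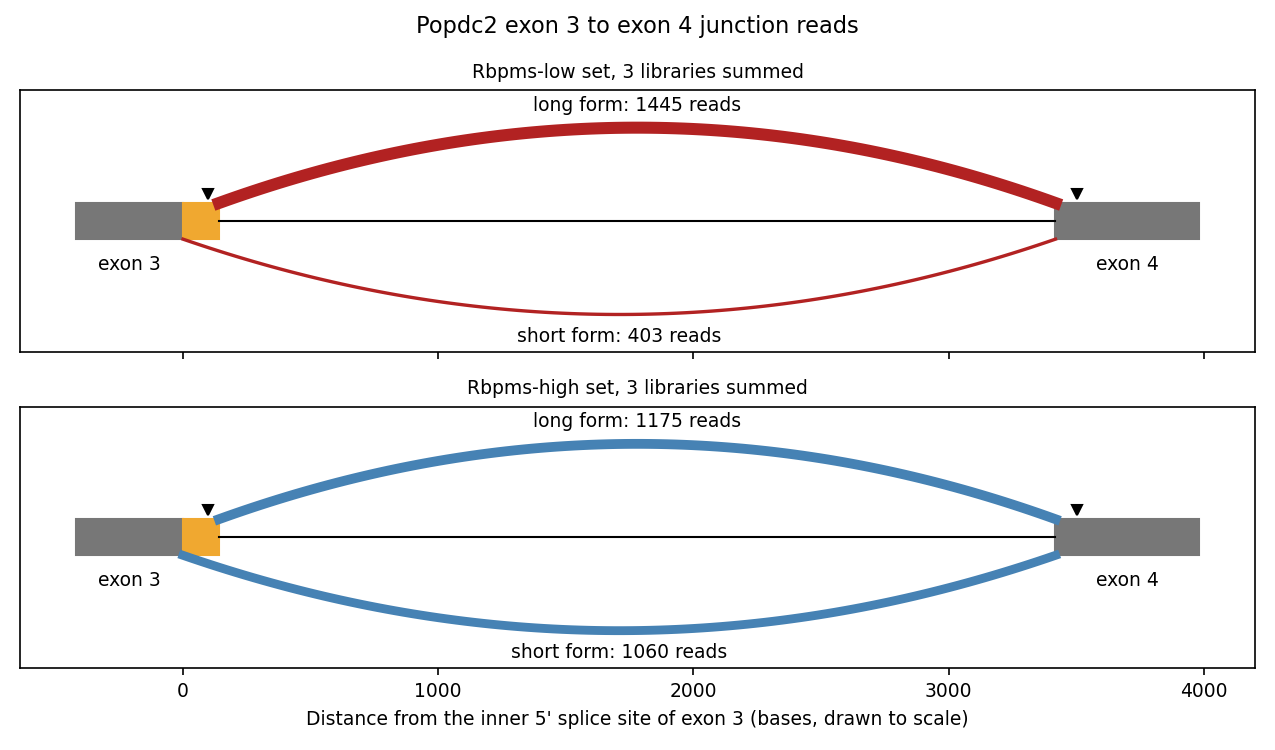
Exons 3 and 4 of Popdc2 drawn to scale, with distance from the inner 5′ splice site in bases on the x axis, the alternative stretch in orange and stop codons as triangles. Arcs are junction reads summed over 3 libraries, with line width in proportion: 1445 long and 403 short in the Rbpms-low set (top), and 1175 long and 1060 short in the Rbpms-high set (bottom).

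Exon 3 of Popdc2, which encodes part of the protein in both forms, had fewer skipping reads in each library of the Rbpms-low set. Reads that joined exon 2 directly to exon 4 numbered 9, 19 and 14 in the Rbpms-low libraries, against 36, 42 and 50 in the Rbpms-high libraries. Reads from exon 2 to exon 3 numbered 280, 366 and 335 in the Rbpms-low libraries, against 346, 417 and 366 in the Rbpms-high libraries. Skipping therefore took 3.11, 4.94 and 4.01% of the reads leaving exon 2 in the Rbpms-low set, against 9.42, 9.15 and 12.0% in the Rbpms-high set. The sets did not overlap, although the exact 95% binomial intervals of single libraries, which cover counting error only, met, reaching 7.60% in the Rbpms-low set and starting at 6.67% in the Rbpms-high set. In the authors' deposited tables, the long exon 3 between exons 2 and 4 had an inclusion level of 0.967 ± 0.00917 in the Rbpms-low and 0.900 ± 0.0165 in the Rbpms-high set, with an FDR of 1.19e-07. For the short exon 3 between the same exons the levels were 0.944 ± 0.0125 in the Rbpms-low and 0.896 ± 0.0104 in the Rbpms-high set, with an FDR of 0.0289. Of all skipped-exon events 1.36% were called by that rule. Inclusion reads of both events include the long or short junction to exon 4, which the alternative 5′ splice site also counts. Their FDRs therefore do not test skipping apart from that site, while the shares of reads leaving exon 2 do not use that junction.

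**Figure D3:**
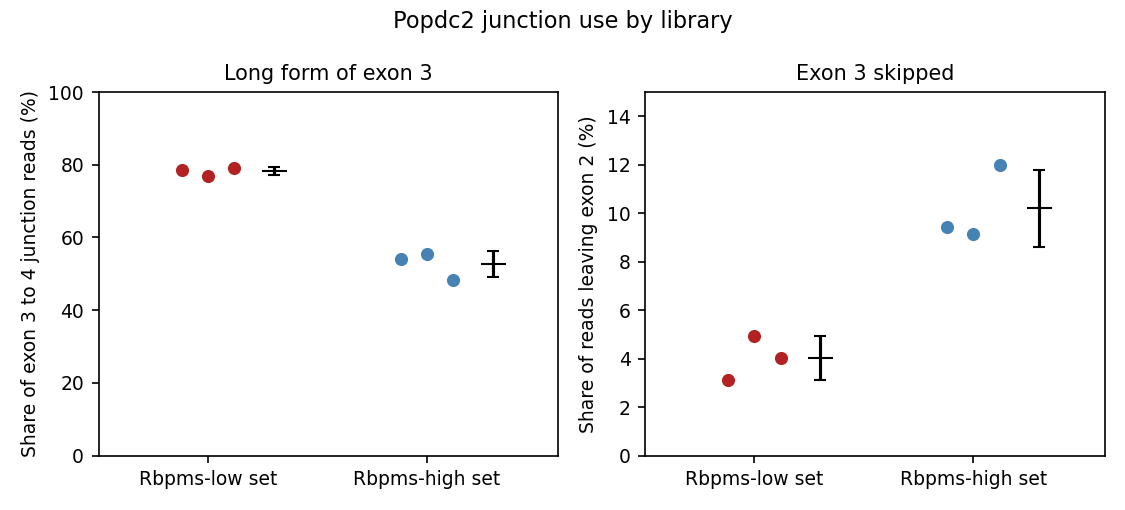
Percent of exon 3 to exon 4 junction reads from the long form of Popdc2 (left) and percent of junction reads leaving exon 2 that skip exon 3 (right), 1 point per library with mean ± SD (n = 3). The Rbpms-low set lies between 76.9 and 79.0% on the left and between 3.11 and 4.94% on the right, apart from the Rbpms-high set in both.

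The remaining Popdc2 events gave a smaller or a mixed picture. In the deposited tables of mutually exclusive exons, the inclusion level of exon 2 against the long exon 3 was 0.407 ± 0.0231 in the Rbpms-low and 0.503 ± 0.0387 in the Rbpms-high set, with an FDR of 0.00661. Against the short exon 3 the order turned round, with 0.701 ± 0.0220 in the Rbpms-low and 0.529 ± 0.0389 in the Rbpms-high set and an FDR of 2.11e-09. Of such events 1.78% were called. In both comparisons the reads for exon 3 include its long or short junction to exon 4, which the alternative 5′ splice site also counts. The opposite orders thus restate in part the difference at that site, and neither FDR is a separate test. Both calls were lost in the authors' deposited tables that add reads within exons, where the differences were -0.028 and 0.0227. Exons 2 and 3 are mostly kept together, as the 280 to 366 reads joining them in the Rbpms-low and the 346 to 417 reads in the Rbpms-high libraries show, so exclusive use is not what most transcripts do. Exon 2 was kept at 0.972 ± 0.00862 in the Rbpms-low and 0.970 ± 0.00850 in the Rbpms-high set between exons 1 and 3, with an FDR of 1. The other 3 Popdc2 events, all between exons 1 and 4, also had an FDR of 1. Among them, the short exon 3 had 0.957 ± 0.0163 in the Rbpms-low and 0.977 ± 0.00924 in the Rbpms-high set. Those sets did not overlap, in the order opposite to that between exons 2 and 4. Its inclusion reads also include the short junction to exon 4.

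Popdc3 and Bves had no event called by the authors. In Popdc3, an alternative 3′ splice site removes the first 52 bases of exon 3, chr10:45316431-45316482, and the frame then closes early, so that Popdc3-201 codes for 291 residues and Popdc3-202 for 171. The start of that exon, chr10:45316431-45316513, is shown because it holds the inner acceptor, whose AG is in capitals, and the stop codon of the short form, also in capitals.
Popdc3 exon 3: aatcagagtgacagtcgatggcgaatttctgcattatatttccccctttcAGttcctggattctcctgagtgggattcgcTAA
The inclusion level of the 52 bases was 0.868, 0.784 and 0.822 in the Rbpms-low set, against 0.869, 0.801 and 0.847 in the Rbpms-high set. The sets overlapped, with means of 0.825 ± 0.0421 in the Rbpms-low and 0.839 ± 0.0347 in the Rbpms-high set and an FDR of 1 in the deposited table, which called 0.941% of such events. Most Popdc3 junction reads thus came from the full-length form in both sets. As skipped-exon events, the long version of exon 3, of 109 bases, and its short version, of 57 bases, were kept in nearly every read, with levels of at least 0.988.

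Bves exons were kept in nearly all junction reads. The exon of 237 bases at chr10:45339220-45339456 had a mean inclusion level of 0.992 ± 0.0139 in the Rbpms-low and 0.988 ± 0.0208 in the Rbpms-high set. The exon of 168 bases at chr10:45353750-45353917 had 0.991 ± 0.0156 in the Rbpms-low and 0.979 ± 0.00889 in the Rbpms-high set, and the exon of 142 bases 0.996 in both. All 3 had an FDR of 1 in the deposited table. Where no skipping read was seen, as in 0 beside 133 inclusion reads for the first exon, skipping reads of up to 2.26% of the inclusion reads remained possible. The 133 reads are from the most even of 5 readings that give the printed levels, so they and the limit rest on that reading. That limit is in raw reads, and after the correction for length used in the inclusion levels it is wider.

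**Figure D4:**
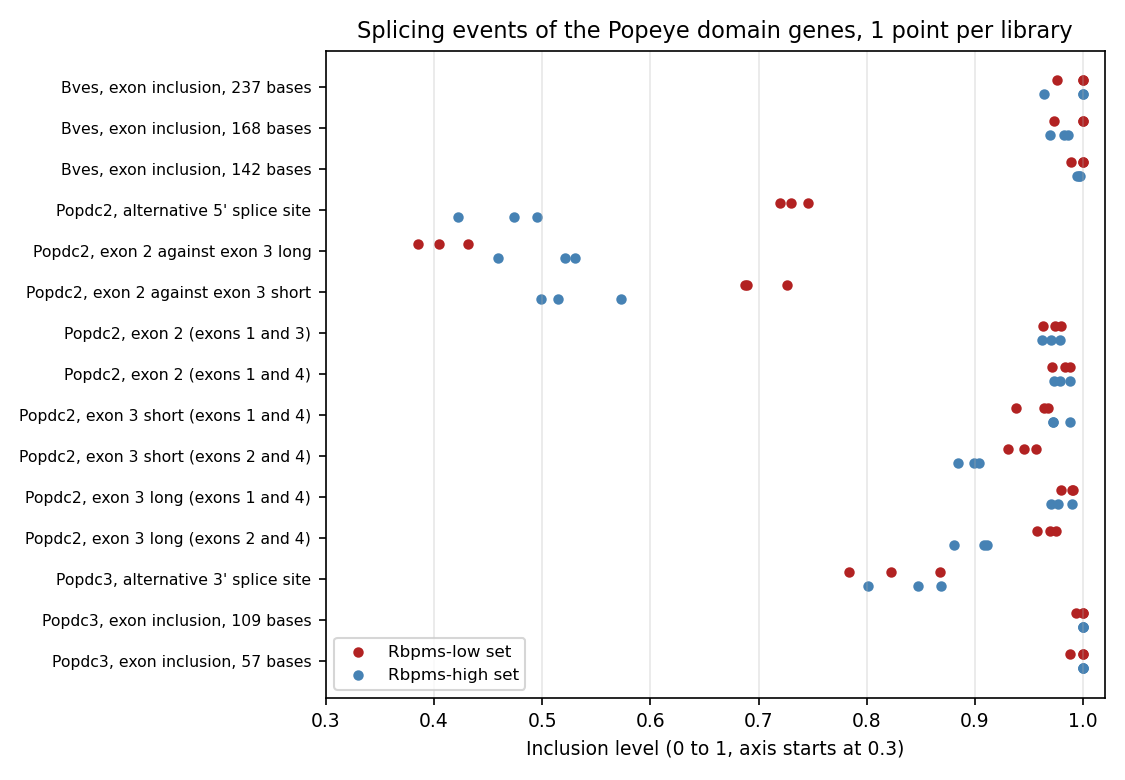
Inclusion level in each library at the 15 events of the Popeye domain genes (x axis from 0.3 to 1), with the Rbpms-low set above the Rbpms-high set in each row. The sets are widest apart at the alternative 5′ splice site of Popdc2, and the Bves and Popdc3 events overlap.

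Genes that work with the family in cAMP signalling were read from lists of known roles, and few were called, beside 2.38% of all genes tested that were higher and 3.99% that were lower in KO hearts. With lists this short, a single call is near that background. Of 10 partners of Popeye proteins, 1 fell and none rose, and the list's median log2 difference was -0.17, against -0.03 over all genes tested. The one was Kcnk2, the channel TREK-1, with 0.476, 0.546 and 0.651 RPKM in KO replicates 1 to 3, against 0.946, 1.07 and 1.12 RPKM in WT replicates 1 to 3. These are low levels, and the groups did not overlap, as for 29.8% of all genes tested. The log2 change was -0.55 with a standard error of 0.12 and limma's adjusted p was 0.0344, a call kept without KO replicate 3 and lost without each of the other 5 libraries, up to an adjusted p of 0.17. Its size depended on the 0.5 RPKM added before the log, being -0.81 with 0.1 added and -0.39 with 1 added. With WT replicates 1 and 2 averaged the call was also lost (limma's adjusted p 0.129), as with replicate number as a block (0.0619).

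On the supply side of cAMP, 1 of 10 tested genes of the beta-adrenergic pathway and 1 of 7 tested adenylyl cyclases fell, and none rose, beside 3.99% of all genes called lower. Adrb1, the main beta-adrenergic receptor of heart muscle, had 2.27, 3.32 and 3.51 RPKM in KO replicates 1 to 3, against 4.86, 4.98 and 5.34 RPKM in WT replicates 1 to 3. Its log2 change was -0.67 with a standard error of 0.15 and limma's adjusted p was 0.0359, and the call was lost without KO replicate 2 and without each WT library (up to 0.144), and with median-ratio scaling (0.0533). Adcy5, a main cyclase of heart muscle, had 12.2, 13.5 and 11.4 RPKM in KO replicates 1 to 3, against 17.3, 18.9 and 18.8 RPKM in WT replicates 1 to 3. Its log2 change was -0.55 with a standard error of 0.09 and limma's adjusted p was 0.0113, rising to 0.0778 without WT replicate 2. With WT replicates 1 and 2 averaged, the calls of Adcy5 (limma's adjusted p 0.0538) and Adrb1 (0.132) were lost. In both genes every KO library lay below every WT library, and groups did not overlap in 29.8% of all genes tested. The medians were 0.04 for the receptor pathway and -0.16 for the cyclases.

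Among receivers and removers of cAMP no gene was called. None of 9 tested effectors passed, and their median was -0.12. Prkar2b, at a log2 difference of -0.42 (limma's adjusted p 0.086), was called lower without KO replicate 1 (0.0281). Prkar1a, a regulatory subunit of protein kinase A, averaged 223 ± 8.29 RPKM in KO and 209 ± 11.9 RPKM in WT hearts, and Prkaca, a catalytic subunit, 92.0 ± 13.1 RPKM in KO and 96.8 ± 2.08 RPKM in WT hearts. None of 11 tested phosphodiesterases, which break down cyclic nucleotides, passed, and their median was 0.00. Pde3a had 14.8, 12.2 and 11.2 RPKM in KO replicates 1 to 3, against 9.29, 9.76 and 11.1 RPKM in WT replicates 1 to 3, and Pde4b averaged 6.41 ± 1.47 RPKM in KO and 6.92 ± 1.19 RPKM in WT hearts. None of 10 A-kinase anchoring proteins passed, with a median of -0.14, although Akap1 was called lower without WT replicate 3 (log2 change -0.38, adjusted p 0.0291 in limma). Akap12 averaged 29.3 ± 2.14 RPKM in KO and 32.3 ± 2.40 RPKM in WT hearts, and Akap1 27.5 ± 0.915 RPKM in KO and 32.3 ± 6.40 RPKM in WT hearts.

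At the caveolae, membrane pits where Popeye proteins are found, 2 of 9 genes rose and none fell, beside 2.38% of all genes called higher. Cavin4, a muscle coat protein of caveolae, had 51.8, 46.9 and 48.9 RPKM in KO replicates 1 to 3, against 20.6, 19.5 and 23.2 RPKM in WT replicates 1 to 3, so the groups lay far apart. Its log2 change was 1.21 with a standard error of 0.08, or 2.31-fold, limma's adjusted p was 0.000253, and the call was kept with each library left out in turn. Pacsin3, which shapes caveolar membranes, averaged 12.8 ± 1.90 RPKM in KO and 7.49 ± 1.53 RPKM in WT hearts, with a log2 change of 0.74 and an adjusted p of 0.0325 in limma, a call lost without KO replicate 1 or 2 or WT replicate 1 or 2 (up to 0.143). Cav3, the muscle caveolin that binds Bves, averaged 59.0 ± 6.45 RPKM in KO and 68.2 ± 3.31 RPKM in WT hearts and was not called. The median log2 change of the list was -0.05.

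**Figure D5:**
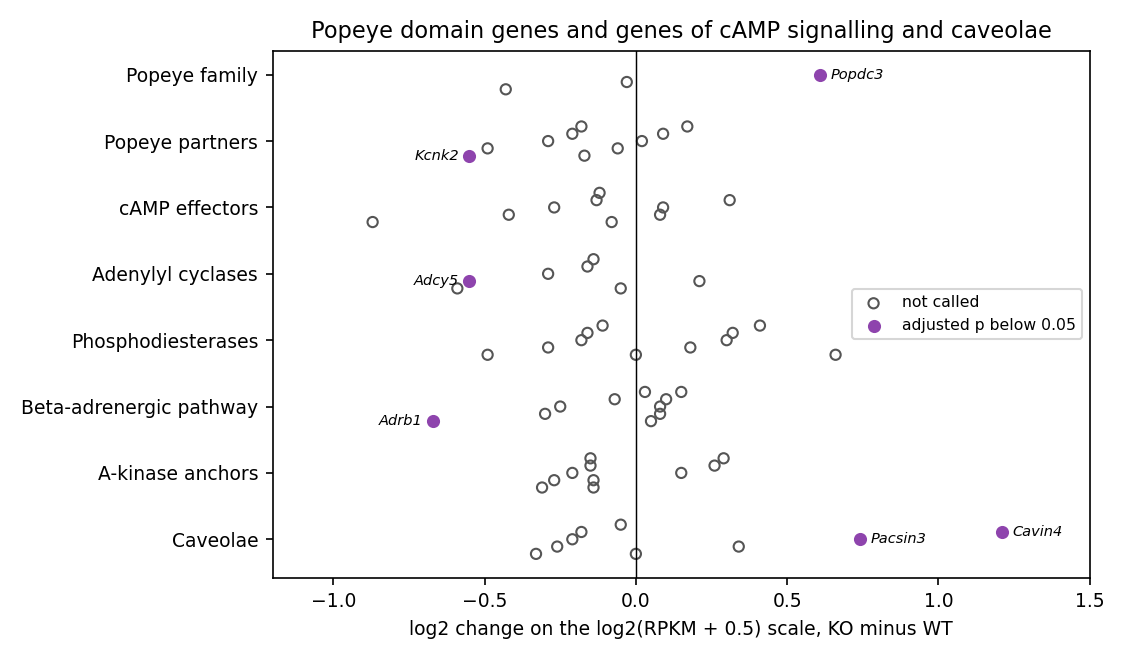
Log2 change, KO minus WT on the log2(RPKM + 0.5) scale, of each tested gene of the Popeye family and of the lists on cAMP signalling and caveolae. Filled points passed an adjusted p below 0.05 and are named: Popdc3, Cavin4 and Pacsin3 lie to the right of 0, and Kcnk2, Adcy5 and Adrb1 to the left.

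Popeye proteins are known from the conduction system, whose markers were therefore set beside these results. Of 8 markers 5 were tested, and 1 fell, beside 3.99% of all genes called lower. Shox2, a transcription factor of the sinus node, had 0.880, 1.27 and 1.25 RPKM in KO replicates 1 to 3, against 3.12, 2.69 and 3.43 RPKM in WT replicates 1 to 3. Its log2 change was -1.14 and limma's adjusted p was 0.00387, kept with each library left out in turn. Hcn4, the pacemaker channel gated by cAMP, had 0.572, 2.32 and 2.30 RPKM in KO replicates 1 to 3, against 2.97, 3.28 and 3.45 RPKM in WT replicates 1 to 3, and was not called at an adjusted p of 0.173 in limma. The 8 markers summed to 17.5 to 25.8 RPKM in KO and 25.8 to 28.3 RPKM in WT libraries, and their part in the levels of Bves and Popdc3 was not tested.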

How the data were processed

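Expression values were RPKM deposited by the authors, scaled to the listed genes of each library, so read depth is unknown. The authors used edgeR 3.30.1, featureCounts 1.6.0 and FastQC 0.11.4, and builds GRCm38 and mm10, per the submitters' processing notes, while for the aligner the sources used here give no name. The authors' deposited edgeR table gave log2 fold changes and abundances, a likelihood ratio score, and a p-value and FDR per gene, and its fold changes run KO over WT, since the sheet of genes higher in KO holds values of at least 1. The deposited rMATS tables, so named per the file names, gave junction reads, a p-value and an inclusion level score per event.

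The test was limma 3.58.1 (R 4.3.3) on log2(RPKM + 0.5) of the 12911 genes that reached 0.5 RPKM in 3 or more libraries, with a trend of variance on level and p-values adjusted over all of them by Benjamini-Hochberg. When 200 genes were changed in simulated data, the fit found 48.2% of 1.5-fold and 81.6% of 2-fold changes, with 5.20% false calls. Commas lost between the deposited read counts were restored so that counts gave the printed levels, which read 1000 of 1000 simulated pairs back exactly. The simulated counts were all large, so this did not test cells with few or no skipping reads. Of the members' 30 cell pairs, 6, all with few or no skipping reads, allowed more than 1 reading. The reading with the most even reads across libraries was then taken. Sequences and positions came from GENCODE M21 (GRCm38). Named list genes were those called, at most 3 per list and direction, or else the 2 with the highest mean. A list of intercalated disc genes is not reported here. Cav3, Hcn4 and Prkar2b were added after their values were seen. Members and lists were chosen with earlier results of these data known.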

Additional observations from a re-analysis of the deposited data

How the results depend on the processing

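Popdc3 kept its direction under all 13 alternatives, and its log2 change lay between 0.52 and 0.76 with each library left out. Its call was lost without KO replicate 2 or 3 or WT replicate 1 or 2, with WT replicates 1 and 2 averaged (log2 change 0.54, adjusted p 0.173 in limma) and without the mean-variance trend (0.61, adjusted p 0.0639), where the cause was not tested. Popdc2 changed sign to 0.01 with median-ratio scaling and ran from -0.09 to 0.07 with each library left out, and Bves missed the threshold throughout. The count of called genes, 822, ran with each library left out from 192 without WT replicate 2 to 868 without WT replicate 3, and was 979 with no filter on low values and 211 with WT replicates 1 and 2 averaged. The replicate block gave 545 calls, and the replicate numbers did not pair the libraries, with correlations of 0.213, -0.271 and 0.122 between libraries of one number. With reads within exons added, 3 of the 5 called member events remained called. They were the event that named Popdc2 and 2 exon 3 events that share its junction reads. The count therefore supports nothing apart from the choice of the family. The difference at that alternative 5′ site of Popdc2, 0.268, was the same and ran from 0.247 to 0.284 with each library left out. Of uncalled genes, these changed sign with a library left out: Ankrd28 (-0.11 to 0.06), Kif1c (-0.13 to 0.03), Selenoh (-0.07 to 0.08, and 0.02 with median-ratio scaling), Prkaca (-0.16 to 0.04), Pde4b (-0.26 to 0.05), Myl4 (-0.06 to 0.42), Myl7 (-0.31 to 0.28), Mylpf (-0.97 to 0.64) and Tnnt3 (-0.57 to 0.36, and 0.09 with WT replicates 1 and 2 averaged). With 3 libraries a group and unknown depth, 48.2% of 1.5-fold changes were found in simulation.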
